A study of Mus musculus with 16 samples.

Results

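miR-21a is a mouse microRNA (miRNA) made from 1 hairpin, whose arms give the mature strands miR-21a-5p and miR-21a-3p. Both strands were taken by name, as 2 of the 941 mature miRNA names in each of the 2 raw count tables. This choice was made with earlier results of these data known. The study sequenced small RNAs of RAW264.7 cells, a mouse macrophage line, and of extracellular vesicles (EVs), the membrane particles that cells release. Its series title concerns macrophage EVs in hepatitis caused by concanavalin A (Con A), a plant lectin that activates T cells. Groups of 3 cell libraries each came from cells that had been kept for 8 h with 1 of 4 treatments: serum Con A EVs, RAW Con A EVs, RAW saline EVs, or PBS with no EVs. EVs were added at 6e9 particles/mL in medium free of other EVs. Con A followed in all 4 groups for a further 16 h, so no group shows cells without Con A, and its dose on these cells was not given in the sources used here. No cells were given serum saline EVs, so an effect of Con A in the donor mice cannot be told apart from an effect of serum EVs as such. The 4 EV preparations gave 1 library each. Serum Con A EVs and serum saline EVs came from blood of female BALB/c mice aged 8 to 9 weeks, drawn 9 h after an intravenous dose of 15 mg/kg Con A or saline. The number of mice behind each serum library was not given in the sources used here. RAW Con A EVs and RAW saline EVs came from the medium of RAW264.7 cells kept for 24 h with 25 µg/mL Con A or with saline. All cell libraries come from a single line, and no label states that a group's 3 libraries were cultured separately, so each p-value covers just the spread among the libraries at hand, which may be technical.

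miRNAs are short RNAs that guide Argonaute proteins to messenger RNAs, mainly through their seed, bases 2 to 8 from the 5′ end, and lower the output of those messages. miR-21 is among the most abundant miRNAs of macrophages and many other cells. It is induced by STAT3, AP-1 and NF-kB signalling, and targets such as Pdcd4 tie it to the resolution of inflammation. When the hairpin is cut, 1 strand is usually kept in Argonaute and its partner, the passenger strand, is mostly degraded.

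The mature strands are shown with the seed in capitals, because reads are assigned by these letters and because miR-21b and miR-21c differ from miR-21a-5p at few bases.
mmu-miR-21a-5p: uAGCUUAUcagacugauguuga
mmu-miR-21a-3p: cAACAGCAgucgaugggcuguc
mmu-miR-21b: uAGUUUAUcagacugauauuucc
mmu-miR-21c: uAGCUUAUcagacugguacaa
The sequences and positions are those of RefSeq on build GRCm38.p6, while the build the authors used was not given in the sources used here. miR-21a-5p lies at chr11:86584120-86584141 and miR-21a-3p at chr11:86584082-86584103, both on the minus strand. The 92-base hairpin holds miR-21a-5p at bases 18 to 39 and miR-21a-3p at bases 56 to 77, with 16 bases between them. The annotation of the same build puts this hairpin inside exon 12, in the 3′ UTR, of Vmp1, a gene for a membrane protein of autophagy that is read from the same strand. Positions below count from 1 at the 5′ end, with the base of miR-21a-5p first. miR-21b, from chromosome 3, has 4 substitutions, C4U in the seed and then G18A, G21U and A22C. miR-21c, from chromosome 8, has the seed of miR-21a-5p and first differs at base 16, with A16G, G18A, U19C, U20A and G21A. Among the 1679 mature mouse names searched, miR-21c was the 1 other name found with the seed of miR-21a-5p, and 0 others had the seed of miR-21a-3p. miR-590-5p, named in the plan among entries that share the seed or root name of miR-21a, was not found by this search. Names outside the 1679 were not checked, so miR-21c may not be the only mouse miRNA with this seed.

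Reads given to the near-identical names were few. miR-21b had 10 reads over the 4 EV libraries and 31 over the 12 cell libraries. miR-21c had 15 reads in EVs and 16 in cells, where miR-21a-5p had 23843 reads in EVs and 917963 in cells. As a percent of miR-21a-5p reads, miR-21b stood at 0.0419% in EVs and 0.00338% in cells, and miR-21c at 0.0629% in EVs and 0.00174% in cells. How reads that match several of these names were counted was not given in the sources used here, and neither miR-21b nor miR-21c passed the filter on low counts.

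The depth was 174510 to 403332 miRNA reads in cells and 114791 to 334285 in EVs, so a name with 0 reads may stand at up to 7.44 to 17.2 CPM (counts per 1e6 miRNA reads of the library) in a cell library and at up to 8.97 to 26.1 CPM in an EV library (3 reads; counting error only). All 4 macrophage and myeloid markers, miR-223-3p, miR-142a-3p, miR-142a-5p and miR-155-5p, had reads in every cell group, where they summed to 0.372 to 0.480% of miRNA reads. miR-223-3p added little to that sum. It ran from 4.08 CPM in a library given RAW Con A EVs to 37.4 CPM in one given serum Con A EVs, in part under the limit above. Levels are shares of a library, and in bulk samples fewer cells of a type and less RNA per cell cannot be told apart.

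The first question was how much of the miRNA pool of these cells is miR-21a-5p and whether that share depends on what the cells were given. miR-21a-5p was the most abundant miRNA in all 12 cell libraries and took 27.1% of their miRNA reads on average. Its share was 24.0, 26.2 and 25.5% in the 3 libraries of cells given serum Con A EVs. It was 28.1, 28.4 and 27.9% in cells given RAW Con A EVs. The libraries of cells given RAW saline EVs had 28.6, 27.3 and 28.0%, and the PBS libraries 26.3, 27.7 and 27.2%. The cells given serum Con A EVs thus held the 3 lowest shares of the 12, with library 2 of that group just under the lowest PBS library. The group means were 25.2 ± 1.15% with serum Con A EVs, 28.1 ± 0.247% with RAW Con A EVs, 28.0 ± 0.630% with RAW saline EVs and 27.1 ± 0.706% with PBS (SD, n = 3 each). The groups differed by more than the spread within them, with 77.9% of the sum of squares lying between groups (exact permutation test over all 369600 splits of 12 libraries into 4 groups of 3, p = 0.00273). Adjusted over the 2 tests of this kind, p was 0.00545, and leaving out each library in turn gave an exact p of 0.00201 to 0.0212. The second most abundant miRNA in each of the 12 libraries was miR-99a-5p, at 9.85 to 12.3%, so that miR-21a-5p exceeded it 1.98 to 2.85-fold.

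**Figure D1:**
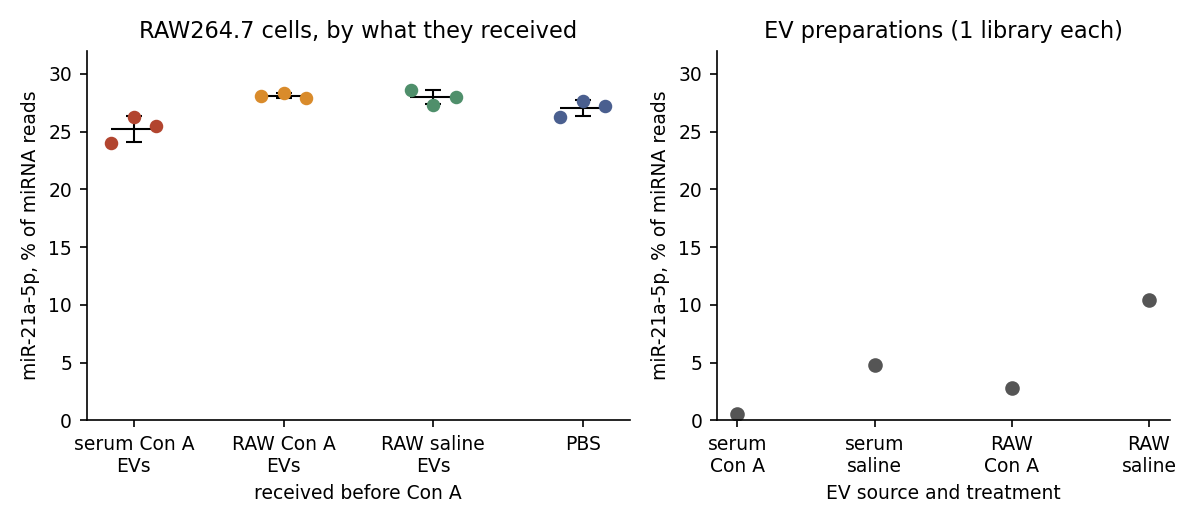
miR-21a-5p as a percent of the miRNA reads of each library (y axes), for recipient cells by what they received before Con A (left; points are libraries, lines and bars the mean and SD of 3) and for the 4 EV preparations (right; 1 library each, no error). Cell libraries sit between 24.0 and 28.6%, while the EV libraries lie at 0.520, 4.81, 2.79 and 10.4%, all below every cell library.

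To compare cell groups miRNA by miRNA, counts were scaled by TMM, which assumes that most miRNAs are unchanged, and tested with edgeR's quasi-likelihood test over the 229 miRNAs with enough reads, at an adjusted p of 0.05. Both miR-21a strands were among the 229. TMM-scaled levels of miR-21a-5p were 219194, 239632 and 239510 CPM with serum Con A EVs. They were 292665, 300714 and 306667 CPM with RAW Con A EVs, and 315252, 275413 and 294437 CPM with RAW saline EVs. PBS cells had 254453, 270935 and 264050 CPM, so they lay between the groups: every library given serum Con A EVs was below every PBS library, and every library given either kind of RAW EVs was above. These differences were small in fold, since the group means ran from 232779 ± 11765 CPM with serum Con A EVs to 300015 ± 7027 CPM with RAW Con A EVs, with 295034 ± 19926 CPM with RAW saline EVs and 263146 ± 8278 CPM with PBS (SD, n = 3 each).

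Set against PBS, serum Con A EVs went with a fall of miR-21a-5p to 0.885 times the PBS level, a log2 change of −0.18 ± 0.06 (SE; edgeR quasi-likelihood test, adjusted p = 0.0283). In this comparison 21.4% of the 229 miRNAs were called in either direction and 36.2% had groups that did not overlap. The call rested on single libraries and on the scaling. It was lost without PBS library 2 (−0.16, edgeR adjusted p = 0.101), PBS library 3 (−0.17, adjusted p = 0.0924) or library 1 of the serum Con A EV group (−0.14, adjusted p = 0.154), and with library size alone in place of TMM (−0.10, adjusted p = 0.0747).

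After RAW Con A EVs, miR-21a-5p rose to 1.14 times the PBS level, a log2 change of 0.19 ± 0.06 (edgeR quasi-likelihood test, adjusted p = 0.0299). Here 11.4% of the 229 miRNAs were called and 25.3% had groups that did not overlap. Of the 6 libraries, only RAW Con A EV library 1 could be left out with the call kept. Without PBS library 1, 2 or 3 the log2 change was 0.17, 0.20 or 0.19 (edgeR adjusted p = 0.140, 0.0687 and 0.1001), and without RAW Con A EV library 2 or 3 it was 0.18 or 0.16 (adjusted p = 0.108 and 0.0956). With library size alone it was 0.056 (adjusted p = 0.382), while the median over the 229 miRNAs moved by −0.14. It was 0.18 (adjusted p = 0.0906) with the scaling of the authors' deposited table and 0.16 (adjusted p = 0.320) with no filter on low counts.

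For cells given RAW saline EVs the log2 change of miR-21a-5p against PBS was 0.16 ± 0.06, 1.12 times the PBS level, with a 95% interval of 0.05 to 0.28, and it missed the threshold (edgeR quasi-likelihood test, adjusted p = 0.0566). The groups did not overlap in TMM-scaled CPM, as for 31.4% of the 229 miRNAs, and 14.0% were called. On the plain share the lowest RAW saline EV library, at 27.3%, was under the highest PBS library, at 27.7%. Without PBS library 2 the log2 change was 0.21 (edgeR adjusted p = 0.0410), without RAW saline EV library 2 it was 0.21 (adjusted p = 0.0135), and it also passed with DESeq2 or with edgeR and RLE factors (0.18 in each, adjusted p = 0.00839 and 0.0214) or with only the 6 libraries compared (0.17, adjusted p = 0.00655). All 3 comparisons with PBS use the same 3 PBS libraries.

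Whether macrophage EVs had been made with Con A or with saline gave no difference in miR-21a-5p beyond the spread between libraries. Cells given RAW Con A EVs against RAW saline EVs had a log2 change of 0.024, with a 95% interval of −0.10 to 0.14 (edgeR quasi-likelihood test, adjusted p = 0.888), and their libraries overlapped. In that comparison 3.49% of the 229 miRNAs were called and 16.2% did not overlap.

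The largest difference in miR-21a-5p was between cells given serum EVs and cells given macrophage EVs. With serum Con A EVs it fell to 0.776 times its level with RAW Con A EVs (log2 change −0.37 ± 0.06; edgeR quasi-likelihood test, adjusted p = 6.98e-06). Against RAW saline EVs it fell to 0.789 times (log2 change −0.34 ± 0.06; edgeR quasi-likelihood test, adjusted p = 1.27e-05). Neither pair of groups overlapped, and both calls held with each library left out in turn and under each of the 9 other settings tried. Many other miRNAs differed in the same comparisons: 34.9% of the 229 were called and 46.7% did not overlap against RAW Con A EVs, and 41.5% were called and 48.0% did not overlap against RAW saline EVs. With library size alone the medians over the 229 miRNAs moved by 0.22 and 0.18, and the log2 changes of miR-21a-5p were −0.16 (edgeR adjusted p = 0.00392) and −0.15 (adjusted p = 0.00514).

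**Figure D2:**
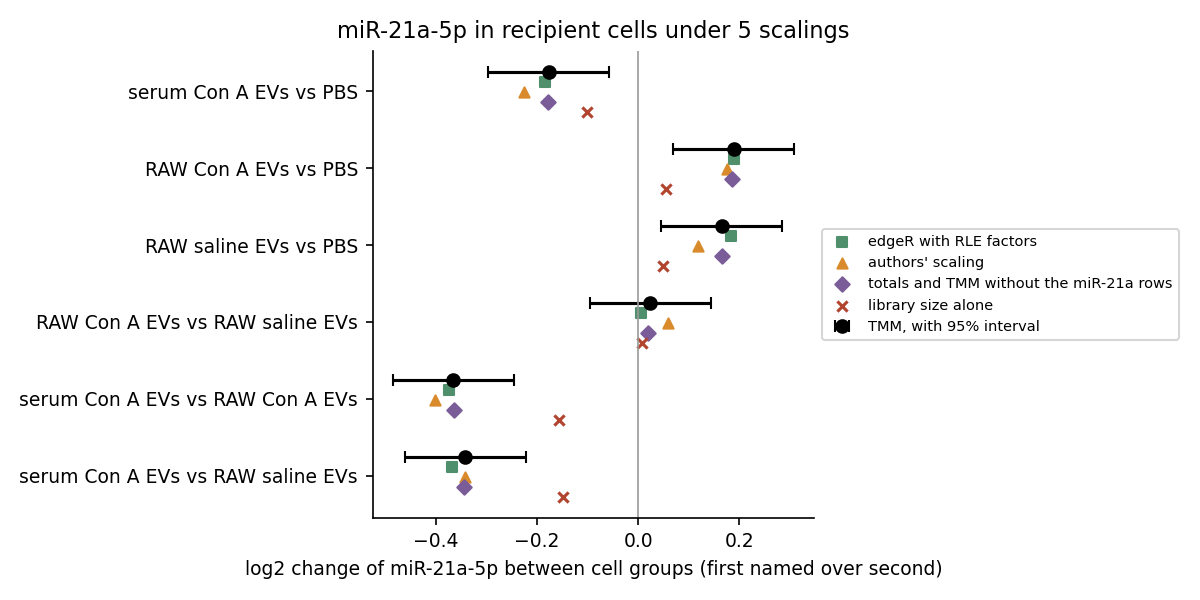
log2 change of miR-21a-5p between cell groups (x axis, first named over second) for 6 comparisons (y axis) under 5 scalings of the libraries. Black points and bars are the TMM value with its 95% interval, and the other symbols are alternative scalings. The direction is the same under all 5 scalings in each comparison, and the crosses, library size alone, lie nearest to 0 in 5 of the 6 comparisons.

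Markers of several cell types moved with the serum EV group. All 3 erythrocyte miRNAs listed, miR-451a, miR-144-3p and miR-486a-5p, had reads in cells given serum Con A EVs, where they summed to 87.4 to 112 CPM, against 4.96 to 20.4 CPM with RAW Con A EVs, 4.16 to 5.48 CPM with RAW saline EVs and 0 reads in the 3 PBS libraries. Of the 3 hepatocyte miRNAs, miR-122-3p was at 0 reads in all cell groups, and the other two ran opposite ways. miR-122-5p, the abundant one in hepatocytes, stood at 185 to 266 CPM with serum Con A EVs, 49.0 to 80.2 CPM with RAW Con A EVs, 21.95 to 49.9 CPM with RAW saline EVs and 8.99 to 25.9 CPM with PBS. miR-192-5p stood at 250.1 to 268 CPM with serum Con A EVs, 728 to 1074 CPM with RAW Con A EVs, 918 to 1336 CPM with RAW saline EVs and 870.4 to 1137 CPM with PBS, and it carried the sum of the list, 437 to 518, 808 to 1145, 951 to 1386 and 886 to 1162 CPM in the same order of groups.

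Both endothelial and platelet miRNAs, miR-126a-3p and miR-126a-5p, had reads in all groups and summed to 843 to 905 CPM with serum Con A EVs, 596 to 607 CPM with RAW Con A EVs, 458 to 543 CPM with RAW saline EVs and 619 to 674 CPM with PBS. The 4 myeloid markers summed to 3717 to 3887 CPM with serum Con A EVs, 3741 to 4154 CPM with RAW Con A EVs, 4325 to 4803 CPM with RAW saline EVs and 4146 to 4653 CPM with PBS. Within that list miR-155-5p stood at 217 to 253 CPM with serum Con A EVs, 1017 to 1112 CPM with RAW Con A EVs, 1256 to 1406 CPM with RAW saline EVs and 998 to 1201 CPM with PBS. The other myeloid markers did not share its fall against PBS. miR-142a-3p stood at 2360 to 2526 CPM with serum Con A EVs and 2253 to 2519 CPM with PBS. miR-142a-5p stood at 1066 to 1189 CPM with serum Con A EVs and 868 to 1095 CPM with PBS. The ranges of miR-223-3p in these groups also overlapped. The lymphocyte marker miR-150-5p was at 0 in the groups given RAW Con A EVs or PBS and at most 3.50 CPM in the others. The part of all these markers in the level of miR-21a-5p was not tested.

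miR-21a-3p, the passenger strand, was rare in the same cells. It had 19, 18 and 14 reads with serum Con A EVs, 7, 10 and 26 with RAW Con A EVs, 11, 14 and 7 with RAW saline EVs, and 14, 23 and 11 with PBS. All 4 groups overlapped, and the strand ranked 166th to 217th among the miRNAs of a library. Mean TMM-scaled levels were 51.8 ± 6.95 CPM with serum Con A EVs, 52.0 ± 16.4 CPM with RAW Con A EVs, 40.8 ± 11.5 CPM with RAW saline EVs and 56.7 ± 20.3 CPM with PBS (SD, n = 3 each).

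No comparison called miR-21a-3p (edgeR quasi-likelihood test, adjusted p = 0.344 to 0.998 over the 6). None of the 6 had an unadjusted p under 0.05, the lowest being 0.164, and neither DESeq2 nor limma called it, DESeq2 giving no adjusted p with RAW Con A EVs against PBS. Its largest log2 change was −0.48, with RAW saline EVs against PBS, with a 95% interval of −1.16 to 0.21. With serum Con A EVs against PBS the log2 change was −0.12, with an interval of −0.73 to 0.49, and with RAW Con A EVs against PBS the interval was −0.65 to 0.64. At this depth a change of the size seen for miR-21a-5p was not detectable in miR-21a-3p.

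The next question was whether the balance of the strands moved with treatment, which does not depend on how libraries are scaled. Over the 12 cell libraries the hairpin gave 917963 reads of miR-21a-5p and 174 of miR-21a-3p, 5276 to 1. Of the 57 hairpins with both arms among the tested names it was the most lopsided, ahead of miR-99a at 3744 to 1. Hairpins whose rarer arm failed the filter on low counts were left out of this ranking and may be more lopsided. Among them was that of let-7i-5p, which took 6.95% of cell reads on average. miR-21a-5p and miR-99a-5p were also the most abundant miRNAs of the cells, and the reads of the major arm limit how large a ratio can be. Summed over 3 libraries the ratio was 4485 to 1 with serum Con A EVs, 5372 to 1 with RAW Con A EVs, 7256 to 1 with RAW saline EVs and 4710 to 1 with PBS. The highest single library was RAW saline EV library 3 at 9616 to 1 and the lowest PBS library 2 at 3637 to 1, while PBS library 3 reached 7633 to 1, so the groups overlapped widely.

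The log2 ratio of the arms did not differ among the 4 cell groups beyond its spread (exact permutation test over 369600 splits, p = 0.235, 41.9% of the sum of squares between groups). In limma fits over the 57 hairpins, with 0.5 reads added to each arm, the ratio of miR-21a was not called in any of the 6 comparisons, nor by edgeR's test of arms within hairpins, and 1 of the 6 had an unadjusted limma p under 0.05 (0.0335, serum Con A EVs against RAW saline EVs). Its log2 change was −0.11 with serum Con A EVs (limma adjusted p = 0.896), 0.27 with RAW Con A EVs (adjusted p = 0.659) and 0.58 with RAW saline EVs (adjusted p = 0.222), each against PBS. Between EV groups it was −0.31 with RAW Con A EVs against RAW saline EVs (limma adjusted p = 0.692), −0.38 with serum Con A EVs against RAW Con A EVs (adjusted p = 0.4996) and −0.68 with serum Con A EVs against RAW saline EVs (adjusted p = 0.101). The last of these reached −0.84 without RAW saline EV library 1 (limma adjusted p = 0.0439). Over the 57 hairpins the shares called in these 6 comparisons, in the same order, were 1.75%, 7.02%, 14.0%, 8.77%, 14.0% and 22.8%.

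For comparison with miR-21a, at least 1 other hairpin passed the test in each of the 6 comparisons. The hairpin whose arm ratio moved most was miR-3068 with serum Con A EVs against PBS (log2 change −0.91; limma adjusted p = 0.0244), and miR-155 with RAW saline EVs against PBS (1.85; adjusted p = 4.79e-08). It was let-7e with RAW Con A EVs against RAW saline EVs (−1.68; limma adjusted p = 0.0439), miR-23b with serum Con A EVs against RAW Con A EVs (1.54; adjusted p = 0.0385) and miR-155 with serum Con A EVs against RAW saline EVs (−2.03; adjusted p = 3.57e-09). With RAW Con A EVs against PBS the largest shift, 1.14 for miR-455, was not called (limma adjusted p = 0.125).

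**Figure D3:**
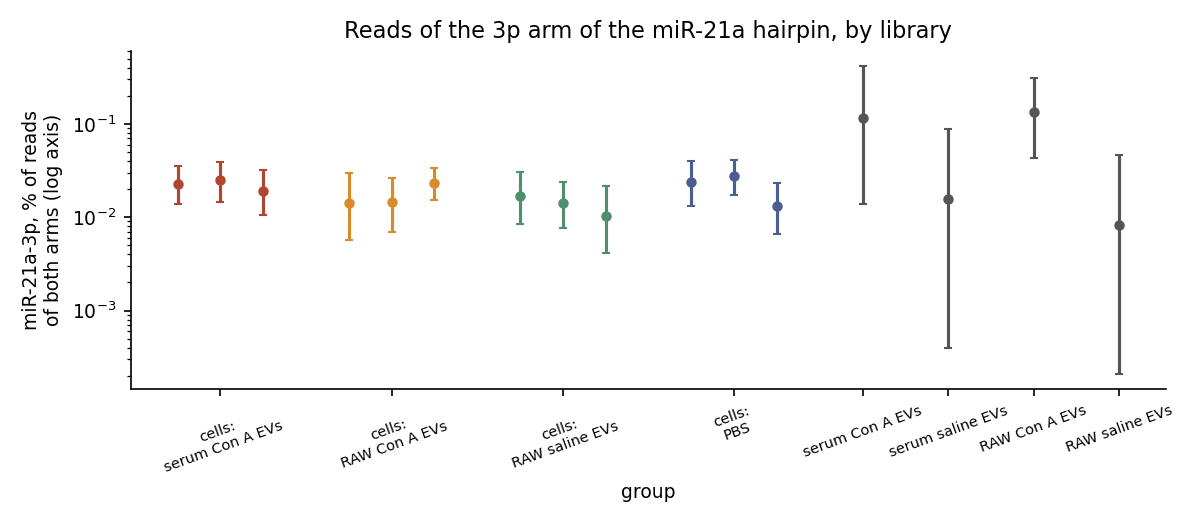
miR-21a-3p as a percent of the reads of both arms of the miR-21a hairpin (y axis, log scale) in each library, grouped on the x axis by what cells received and by EV preparation. Points are libraries and bars are exact 95% binomial intervals, which cover counting error only. Cell libraries lie between 0.0104 and 0.0275% with overlapping intervals, and the EV values rest on 1 to 5 reads of miR-21a-3p.

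EV libraries bear on what the vesicles carry. In all 4 preparations miR-21a-5p took a smaller share than in any cell library, and in both sources its share of reads was lower after Con A, a direction that turned for serum EVs on the values the authors deposited. It had 1737 reads in serum Con A EVs, 0.520% of the miRNA reads (95% Wilson interval 0.496 to 0.545%), and 6355 reads in serum saline EVs, 4.81% (4.70 to 4.93%). It had 3767 reads in RAW Con A EVs, 2.79% (2.71 to 2.88%), and 11984 reads in RAW saline EVs, 10.4% (10.3 to 10.6%). From low to high the order of shares was serum Con A EVs, RAW Con A EVs, serum saline EVs and RAW saline EVs, and no neighbours in it had overlapping intervals, which cover counting error only. On the authors' deposited values, taken from tables normalized separately for serum and RAW EVs, the order was another: 50.4 in serum saline EVs, 235 in RAW Con A EVs, 868.5 in serum Con A EVs and 922 in RAW saline EVs. Reads carry no molecular identifiers, and with 1 library a group there is no replicate check and no test.

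The rank of miR-21a-5p within the library was 14th in serum Con A EVs, 5th in serum saline EVs, 10th in RAW Con A EVs and 3rd in RAW saline EVs. Other miRNAs led. In serum Con A EVs, miR-148a-3p at 42.6% and miR-122-5p at 39.2%, both abundant in liver, made up 81.8% of the reads. In serum saline EVs miR-148a-3p led with 12.0%, in RAW Con A EVs miR-122-5p led with 20.8%, and in RAW saline EVs let-7i-5p led with 24.3%. The 3 hepatocyte markers summed to 42.6% in serum Con A EVs and 11.7% in serum saline EVs, and to 21.2% in RAW Con A EVs and 0.414% in RAW saline EVs, where miR-122-3p had 0 reads in both RAW preparations. Erythrocyte markers, all 3 with reads, summed to 1.68% in serum Con A EVs and 10.2% in serum saline EVs, and to 0.145% in RAW Con A EVs and 0.219% in RAW saline EVs. The 4 myeloid markers summed to 0.0754% in serum Con A EVs, 0.282% in serum saline EVs, 0.109% in RAW Con A EVs and 0.0984% in RAW saline EVs. Totals without the other leading miRNAs, given beside the ratios of miR-21a-5p, measure how far its share moves with theirs. Reads of miR-21a itself stayed in these totals, so such a ratio also depends on its own share.

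As a ratio of CPM, miR-21a-5p was 9.26-fold lower in serum Con A EVs than in serum saline EVs (95% Poisson interval 8.78 to 9.77, counting error only), a log2 ratio of −3.21. Of the 124 miRNAs with at least 50 reads over both serum libraries, 85.5% differed by over 2-fold, and the median log2 ratio was −2.35. miR-21a-5p was the 32nd lowest of the 124. The 12 miRNAs other than miR-21a among the 10 most abundant of either library were then taken out of the totals. This left 8.57% of the serum Con A EV reads and 44.1% of the serum saline EV reads, and the log2 ratio of miR-21a-5p was −0.85. On the authors' deposited values the direction turned: miR-21a-5p stood at 868.5 in serum Con A EVs and 50.4 in serum saline EVs, 17.2-fold higher after Con A (log2 4.11). The median log2 ratio over the 276 miRNAs of these deposited values was 4.98, above that of miR-21a-5p. The deposited values are the reads divided by 1 number per library, 2 for serum Con A EVs and 126 for serum saline EVs, and what these numbers count was not given in the sources used here.

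In macrophage EVs miR-21a-5p was 3.74-fold lower in RAW Con A EVs than in RAW saline EVs (interval 3.60 to 3.88), a log2 ratio of −1.90. Here 52.2% of 134 miRNAs differed by over 2-fold and the median log2 ratio was −0.16, with miR-21a-5p the 20th lowest. Without the most abundant miRNAs other than miR-21a, 12 in number, the log2 ratio was −1.74. The authors' deposited values gave the same direction, 235 in RAW Con A EVs and 922 in RAW saline EVs, a ratio of 0.255, with 16 and 13 as the dividing numbers. Their median log2 ratio over 319 miRNAs was −0.30. These EV libraries also held miRNAs that were rare or absent in the line itself. The hepatocyte miRNA miR-122-5p stood at 208038 CPM in RAW Con A EVs and 3528 CPM in RAW saline EVs, beside 8.99 to 25.9 CPM in PBS cells. Erythrocyte miRNAs summed to 1453 CPM in RAW Con A EVs and 2187 CPM in RAW saline EVs, with 0 reads in PBS cells. Whether all reads of the RAW EV libraries came from the RAW264.7 cells was not tested.

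Between sources, miR-21a-5p was 2.17-fold lower in serum saline EVs than in RAW saline EVs (interval 2.11 to 2.24; log2 ratio −1.12). Of 144 miRNAs 66.7% differed by over 2-fold, the median log2 ratio was 0.18, and miR-21a-5p was the 41st lowest. Without the 14 most abundant miRNAs of these saline libraries other than miR-21a, its log2 ratio was −1.30. After Con A it was 5.37-fold lower in serum than in RAW EVs (interval 5.08 to 5.69; log2 ratio −2.43), near the median of −2.04 over 120 miRNAs, of which 81.7% differed by over 2-fold, and 56th from the lowest. Without the 16 most abundant miRNAs of these Con A libraries other than miR-21a, the log2 ratio was −0.35. On the authors' deposited values, from separately normalized tables, the direction of the Con A pair turned, with 868.5 in serum Con A EVs and 235 in RAW Con A EVs, 3.69-fold higher in serum (log2 1.88). The saline pair kept its direction there, with 50.4 in serum saline EVs and 922 in RAW saline EVs (log2 −4.19). Over 219 miRNAs the median log2 ratio of the deposited values was 2.26 for the Con A pair and −2.93 for the saline pair. The serum and RAW preparations also differ in the centrifugation used, per the labels' protocols.

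Set against the cells, miR-21a-5p had 27928 CPM in RAW Con A EVs and 271279 CPM in the summed PBS cells, which were also cultured with Con A, 9.71-fold lower in the EVs (interval 9.41 to 10.0; log2 ratio −3.28). Over 199 miRNAs, 63.3% differed by over 2-fold, the median log2 ratio was −0.80, and miR-21a-5p was the 15th lowest. The most abundant miRNA of the cells was among the lower-ranked in this ratio. Its level in cells is the lower term of the ratio, so picking a miRNA for its abundance in cells can itself favour a low rank. Without the 13 most abundant miRNAs other than miR-21a, 30.9% of the RAW Con A EV reads and 59.1% of the PBS cell reads remained. The log2 ratio of miR-21a-5p was then −2.34, with miR-21a-5p itself still in both totals. The EV donors and the PBS cells were separate cultures with different times in Con A.

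The 10 miRNAs next most abundant in cells give a scale for these ratios. In serum Con A EVs against serum saline EVs, 9 of the 10 were lower, with a median log2 ratio of −1.93, and 1, let-7i-5p at −3.72, was lower by more than miR-21a-5p. On the authors' deposited values of that pair 0 of the 10 were lower and all 10 higher, with a median log2 ratio of 5.39 beside 4.11 for miR-21a-5p. In RAW Con A EVs against RAW saline EVs, 5 of the 10 were lower, with a median of −0.002, and again let-7i-5p alone, at −2.81, was lower by more. let-7c-5p had a log2 ratio of 3.33 there and miR-27b-3p one of 1.58. In serum saline EVs against RAW saline EVs the median was −1.59 and 7 of the 10 were lower by more than miR-21a-5p. On the authors' deposited values of those saline libraries all 10 were lower, with a median of −4.66. In serum Con A EVs against RAW Con A EVs the median was −3.25, all 10 were lower, and 8 were lower by more. On the authors' deposited values of these Con A libraries 2 of the 10 were lower and 8 higher, with a median of 1.06. In RAW Con A EVs against PBS cells the median was −0.66, and miR-7b-5p alone, at −3.39, was lower by more.

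**Figure D4:**
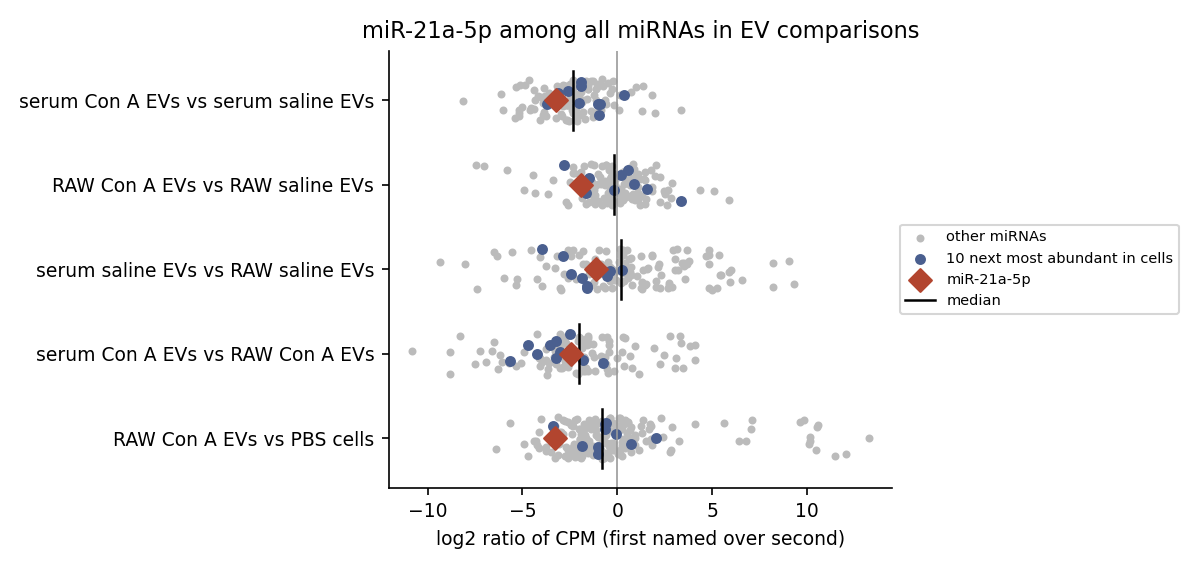
log2 ratio of CPM (x axis, first named over second) for each miRNA with at least 50 reads over both libraries, in 5 comparisons (y axis). Diamonds are miR-21a-5p, dark points the 10 next most abundant miRNAs of the cells, light points all others, and vertical bars the median of all. miR-21a-5p lies left of the median in all 5, by least in serum Con A EVs against RAW Con A EVs, at −2.43 against −2.04; each library is single, so no error is drawn.

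miR-21a-3p was at the limit of counting in EVs, with 2 reads in serum Con A EVs, 1 in serum saline EVs, 5 in RAW Con A EVs and 1 in RAW saline EVs. As a percent of both arms this was 0.115% (exact 95% binomial interval 0.0139 to 0.415%) in serum Con A EVs and 0.0157% (0.000398 to 0.0876%) in serum saline EVs. It was 0.133% (0.0431 to 0.309%) in RAW Con A EVs and 0.00834% (0.000211 to 0.0465%) in RAW saline EVs. The intervals of the serum pair overlap, and those of the RAW pair overlap narrowly. The CPM ratio of RAW Con A EVs to RAW saline EVs was 4.26, with a Poisson interval of 0.476 to 201, and that of RAW Con A EVs to PBS cells was 0.644, with an interval of 0.200 to 1.61. For serum Con A EVs to RAW Con A EVs it was 0.161, with an interval of 0.0154 to 0.986, from 2 and 5 reads. The authors' deposited values of that pair, 1.0 and 0.313, ran the other way.

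The miRNAs whose levels ran most like that of miR-21a-5p over the 12 cell libraries were sought among 157 tested miRNAs with a mean of at least 100 CPM, by Pearson's r of log2 CPM after TMM. These r values describe libraries that share 4 treatments and 1 scaling, and their median was 0.116. miR-7b-5p (r = 0.964) and miR-7a-5p (r = 0.961), near-identical miRNAs whose reads may be shared out by the counting, and miR-23b-3p (r = 0.893) were most alike. miR-339-5p (r = −0.913), miR-425-5p (r = −0.904) and miR-26a-5p (r = −0.893) ran most opposite. Over the 8 conditions, 4 cell group means and 4 EV libraries, the most alike of 175 were miR-30c-5p (r = 0.991), miR-374b-5p (r = 0.985) and miR-191-5p (r = 0.981), against a median of 0.690. These r values span the drop from cells to EVs, and among the 4 cell groups alone these miRNAs ran opposite to miR-21a-5p. With serum Con A EVs, RAW Con A EVs, RAW saline EVs and PBS, miR-21a-5p had 252261, 281194, 279826 and 270537 CPM. In that order miR-30c-5p had 9864, 8370, 8425 and 9745 CPM, and miR-374b-5p and miR-191-5p were likewise highest with serum Con A EVs. miR-21a-3p has too few reads for such a measure, and its highest r was 0.709 with miR-27b-5p.

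Other miRNAs that inflammatory signals induce in macrophages were set beside miR-21a-5p, and no difference between them and miR-21a-5p was tested. The list holds 9 names, of which 5 passed the filter on low counts: miR-155-5p, miR-155-3p, miR-146a-5p, miR-146b-5p and miR-9-5p. With serum Con A EVs against PBS 1 rose and 2 fell, where 18 rose and 31 fell, 21.4%, over all 229, and the median log2 change was 0.07 beside 0.01 over all. miR-155-5p, which promotes inflammatory signalling, fell by 2.26 on the log2 scale (edgeR quasi-likelihood test, adjusted p = 2.54e-18), beside the −0.18 of miR-21a-5p. Its partner miR-155-3p fell by 2.13, while miR-9-5p rose by 0.26 (edgeR adjusted p = 1.13e-08 and 0.00193).

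With RAW Con A EVs against PBS 1 of the 5 rose and 1 fell, where 14 rose and 12 fell, 11.4%, over all 229, with a median of −0.01 beside −0.01. miR-146a-5p, which dampens NF-kB signalling, rose by 0.92 (edgeR quasi-likelihood test, adjusted p = 1.27e-12), in the direction of miR-21a-5p, and miR-155-3p fell by 0.71 (adjusted p = 0.0243). With RAW saline EVs against PBS 2 rose and 1 fell, where 17 rose and 15 fell, 14.0%, over all 229, with a median of 0.04 beside −0.004. There miR-146a-5p had a log2 change of 0.82, miR-155-5p of 0.45 and miR-155-3p of −1.43 (edgeR adjusted p = 2.40e-11, 1.00e-04 and 2.17e-05). With RAW Con A EVs against RAW saline EVs 0 rose and 1 fell, miR-155-5p by 0.35 on the log2 scale (edgeR adjusted p = 0.0143), where 3 rose and 5 fell, 3.49%, over all 229, with medians of 0.02 and 0.02.

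In cells given serum Con A EVs against RAW Con A EVs, where miR-21a-5p fell, 3 of the 5 also fell and 1 rose, where 39 fell and 41 rose, 34.9%, over all 229, with a median of −0.81 beside 0.01. miR-155-5p had a log2 change of −2.36, miR-155-3p of −1.42 and miR-146a-5p of −0.81, and miR-9-5p rose by 0.32 (edgeR quasi-likelihood test, adjusted p = 7.99e-19, 0.000121, 1.17e-11 and 8.06e-05). Against RAW saline EVs 2 fell, miR-155-5p by 2.71 and miR-146a-5p by 0.71, and miR-9-5p rose by 0.35 (edgeR adjusted p = 3.42e-21, 1.11e-10 and 1.91e-05), where 44 fell and 51 rose, 41.5%, over all 229, with a median of −0.70 beside 0.04.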

How the data were processed

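Small RNA libraries were made with the NEBNext kit and sequenced on a MiSeq as 51-base single reads, per the labels' protocols. The authors deposited raw counts, whole reads per mature mouse miRNA name, of 12 cell and 4 EV libraries, and 5 tables of normalized signal. In cells the deposited signal is the count times 1 factor per library, and in EVs the count divided by 1 number per library, as checked on the values. Aligner, miRNA annotation and build were not given in the sources used here, and the submitters' processing notes name edgeR with no version.

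Counts of the 12 cell libraries were filtered by filterByExpr (229 of 941 names), scaled by TMM and fitted in 1 quasi-likelihood model (edgeR 4.0.16, R 4.3.3), 2-sided, with Benjamini-Hochberg adjustment over the 229 in each of 6 comparisons. Arm ratios were tested with limma 3.58.1 over 57 hairpins. EV libraries were set side by side in CPM, with exact intervals and no test. The edgeR and arm-ratio tests were run on simulated counts, and the permutation test on small made-up sets of values. Alternatives were DESeq2 1.42.0, RLE factors, library size, the authors' scaling, totals without miR-21a, no filter, limma-trend, 6 libraries, a replicate block and leaving out each library. Any 2 libraries of a group differed by more than sampling noise (chi-square per degree of freedom 1.84 to 8.30). The labels name no batch, and 0 columns matched no sample.

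The members, marker and inflammation lists were chosen with earlier results of these data known. Named miRNAs were both strands, names with the root or seed of miR-21a, the 3 most and 3 least alike by r in cells and the 3 most alike over conditions, the leading miRNAs of each library, list members that were called, and the hairpin with the largest arm shift. let-7c-5p, miR-27b-3p, let-7i-5p and miR-7b-5p among the 10 next most abundant were named after their values were seen.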

Additional observations from a re-analysis of the deposited data

How the results depend on the processing

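Both calls of lower miR-21a-5p with serum Con A EVs, against RAW Con A EVs (log2 change −0.40 to −0.16) and RAW saline EVs (−0.38 to −0.15), held under all 9 alternatives and with each library left out (−0.39 to −0.32 and −0.39 to −0.30). Against PBS the call for serum Con A EVs was lost with library size alone (−0.10), and leaving out single libraries gave −0.21 to −0.14. The call for RAW Con A EVs was lost with library size alone (0.056), the authors' scaling (0.18) and no filter (0.16), with 0.16 to 0.20 when libraries were left out. RAW saline EVs against PBS became a call with DESeq2 (0.18), RLE factors (0.18) and 6 libraries (0.17), with 0.14 to 0.21 when libraries were left out. RAW Con A EVs against RAW saline EVs gave −0.023 to 0.028 with libraries left out, never a call.

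Counts of called miRNAs moved as follows. RAW Con A EVs against PBS gave 26, 16 with no filter and 11 to 18 with a library left out. RAW saline EVs against PBS gave 32, and 51 with library size alone. RAW Con A EVs against RAW saline EVs gave 8, 4 with DESeq2, 5 with library size alone or 6 libraries, and 1 to 11 with a library left out.

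miR-21a-3p, never a call, changed sign with serum Con A EVs against RAW Con A EVs under library size alone (0.11) and limma-trend (0.024), and between −0.24 and 0.28 with libraries left out. Against PBS it ran from −0.41 to 0.17 with serum Con A EVs and from −0.40 to 0.28 with RAW Con A EVs. The arm ratio ran from −0.31 to 0.21 with serum Con A EVs against PBS and from −0.84 to −0.51 with serum Con A EVs against RAW saline EVs. The cause of these changes was not tested.

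Replicate numbers showed no clear pairing of the libraries: same-numbered libraries correlated at r of −0.25 to 0.19, with 2 of 18 pairs above 0.1, and 7 of 36 matched best with their own number. The labels do not say whether same-numbered libraries shared a culture or day, and low r cannot exclude it. With the replicate block no call of miR-21a changed, miR-21a-3p turned to 0.020 with RAW Con A EVs against PBS, and counts of calls in the 6 comparisons, in the order of the arm ratios, were 50, 23, 34, 9, 81 and 95 against 49, 26, 32, 8, 80 and 95.

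In EVs the log2 ratios of miR-21a-5p without the most abundant miRNAs other than miR-21a were −0.85 (serum Con A against serum saline), −1.74 (RAW Con A against RAW saline), −1.30 (serum saline against RAW saline), −0.35 (serum Con A against RAW Con A) and −2.34 (RAW Con A EVs against PBS cells). With totals without miR-21a, the RAW pair, the saline pair and the pair with cells gave −2.02, −1.21 and −3.70. The authors' deposited values gave 4.11 for the serum pair, the opposite direction, and −1.97 for the RAW pair; across the separately normalized tables, an alternative chosen after seeing the data, they gave −4.19 (serum saline against RAW saline) and 1.88 (serum Con A against RAW Con A, again opposite). The few reads of miR-21a-3p and single EV libraries set the limits.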
